A study of Mus musculus with 6 samples.

Results

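Elastic fibre genes and lysyl oxidase genes were compared between primary mouse embryonic fibroblasts with a deletion of exon 2 of Cas on both alleles, on 1 allele or on neither. The set was named by 10 gene symbols, namely elastin (Eln), the fibulins Fbln1, Fbln2, Fbln5 and Efemp2, the microfibril protein gene Mfap5, and the lysyl oxidase genes Lox, Loxl1, Loxl2 and Loxl3. Every probe set (short probes read together as one transcript's signal) annotated to exactly 1 of these symbols was taken, which gave 17 of the 45101 probe sets on the array and covered 8 of the 10 genes. Probe sets of Loxl2 were annotated to a second gene as well and are left to the closing section, and no value of Efemp2 was analysed here. A total of 15 of the 17 probe sets, with at least 1 for each of the 8 genes, lay among the 22519 brighter probe sets that were tested, so no measured gene was lost to the intensity filter.

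The study asked what exon 2 of Cas contributes to gene expression in fibroblasts. Cas (p130Cas, gene symbol Bcar1) is a docking protein of integrin adhesions, and the labels write the genotypes as Cas exon 2∆/∆ (homozygotes), Cas exon 2+/∆ (heterozygotes) and Cas exon 2+/+ (wild type). Each genotype was represented by 2 arrays from 2 embryos, for 6 arrays in all. All embryos came from crosses between heterozygotes and were collected at 12.5 days post coitum (dpc), and the cells were cultured from what was left once heads and inner organs had been removed. The labels give a B6 background for each array apart from the first wild-type array, whose label names no strain. Embryo numbers limit the precision, and p-values cover the spread among these cultures. In bulk RNA, fewer cells of a type and less RNA per cell cannot be told apart.

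Elastic fibres give skin, lung and arteries their recoil. Cells secrete tropoelastin, the soluble product of Eln, which is laid down on a scaffold of microfibrils made of fibrillins and associated glycoproteins. Fibulins bridge elastin, microfibrils and enzymes, and lysyl oxidases, which are copper-dependent amine oxidases, oxidise lysines so that elastin and collagen become cross-linked. Fibroblasts and smooth muscle cells are the main producers.

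The deposited values were linear intensities, with medians between 21.9 and 27.3 on the 6 arrays and highest values between 15929.8 and 17154.2. All 7 fibroblast markers were above the filter, with collagen I (Col1a1) at a log2 intensity between 12.46 and 13.43, while the 3 skeletal muscle markers lay below it. Of the 4 endothelial markers, Pecam1 and Cdh5 lay below the filter and Kdr and Tek above it, at mean log2 intensities of 5.45 and 4.98. Bcar1 itself does not check the labels, since no source used here says where its probe sets lie relative to the deleted exon. Its brighter Bcar1 probe set had intensities of 268 and 324 in homozygotes, 283 and 366 in heterozygotes, and 711 and 309 in wild type. Wild type 1 and homozygote 1 were most often the lowest of the 6 arrays, for 26.6% and 24.4% of the 11373 genes tested. The lowest array was heterozygote 1 for 16.4%, wild type 2 for 12.2%, heterozygote 2 for 11.4% and homozygote 2 for 9.04%. Y-linked genes and Xist also divided the arrays. The Y-linked gene Eif2s3y had log2 levels of 8.76 and 8.61 in homozygotes, 1.24 and 1.70 in heterozygotes, and 3.61 and 8.37 in wild type, and Xist ran the other way, so embryo sex and genotype cannot be told apart between homozygotes and heterozygotes.

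No gene of the set passed the test in any comparison. The limma fit across all tested probe sets called 0 of 22519 (0%) at an adjusted p under 0.05 in each of the 4 comparisons, with unadjusted p under 0.05 for 560 probe sets in homozygotes against both other genotypes, 855 in homozygotes against wild type, 488 in homozygotes against heterozygotes and 1185 in heterozygotes against wild type. In homozygotes against the mean of both other genotypes, 5 of the 8 genes had a positive and 3 a negative difference, with a median of 0.04 on the log2 scale, beside 47.4% positive and a median of -0.01 over all 11373 genes tested. Differences ranged from -0.13 for Fbln2 to 0.39 for Fbln1, and their standard errors (SE) ranged from 0.19 to 0.81. Neither direction of complete separation, with both homozygote arrays above or both below the other 4, was met by any of the 8 genes, against 3.16% of all genes above and 3.61% below. The limma adjusted p was 1 for each of the 8 genes there, and 0 of 8 had an unadjusted p under 0.05, against 2.19% of all genes. Without wild type 1, 1 of the 8 differences was positive and the median was -0.13. With a covariate for embryo sex, 1 of 8 was positive and the median was -0.55. Within genotypes that covariate differed mostly between the wild-type arrays (-5.87 and 2.93), so the adjustment rests largely on the gap between them. In homozygotes against both other genotypes, Mfap5, Lox and Loxl1 were negative when the arrays were not normalized.

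**Figure D1:**
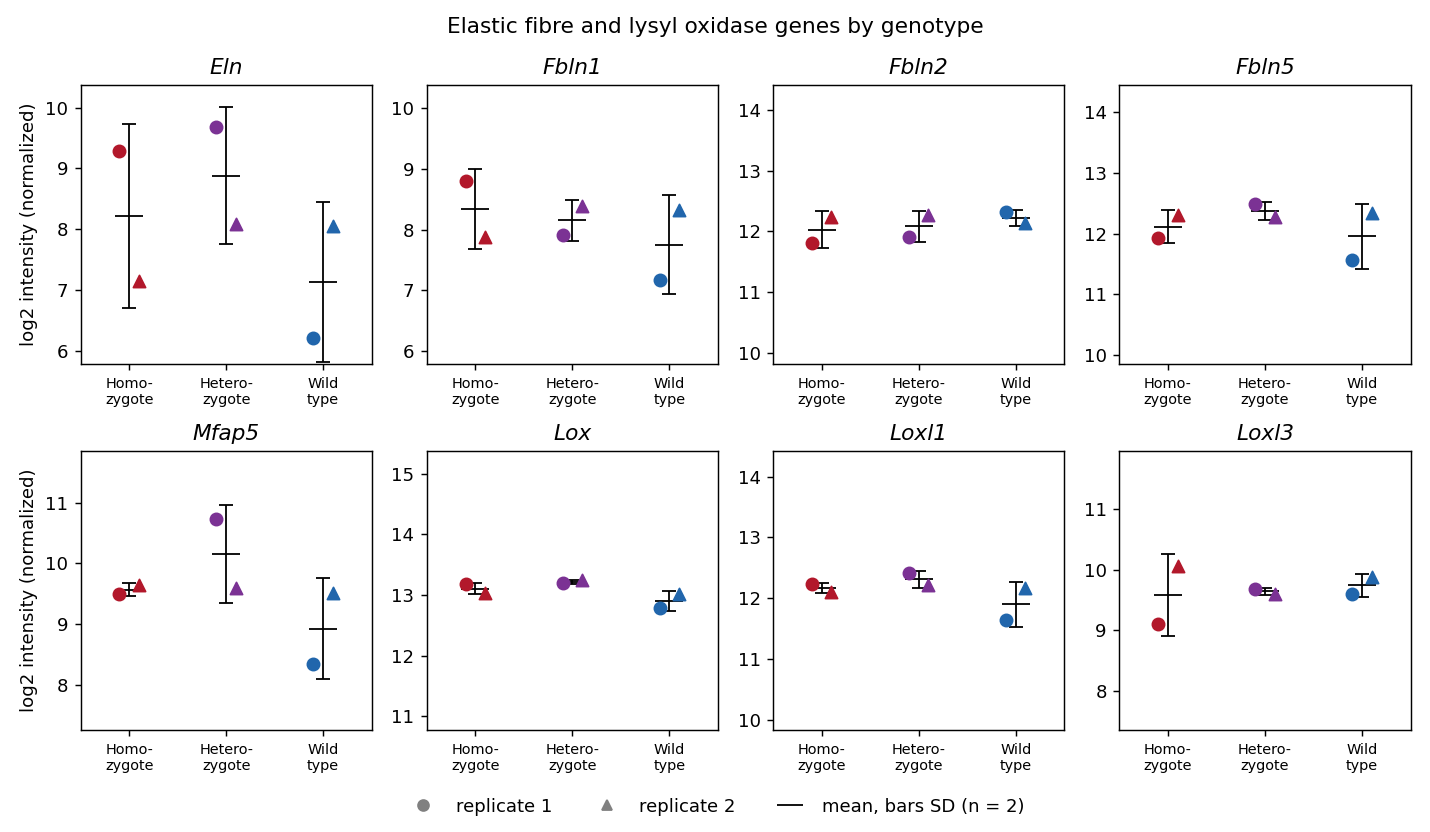
Normalized log2 intensity of the 8 measured genes (y axis, the same span of log2 units in every panel) in homozygotes, heterozygotes and wild type (x axis). Circles are replicate 1, triangles replicate 2, and bars the mean with its SD (n = 2). Eln spanned 11.1-fold over the 6 arrays and Lox 1.38-fold. In no panel did both homozygote arrays lie above, or both below, all arrays of the other genotypes. Both heterozygote arrays lay above both wild-type arrays for Eln, Mfap5, Lox and Loxl1.

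Elastin, the protein of the fibre core, was the most variable gene of the set. Its brighter probe set had intensities of 595 and 130.3 in homozygotes, 780.3 and 311 in heterozygotes, and 70.3 and 241 in wild type. Heterozygote 1 and homozygote 1 were the highest arrays and wild type 1 and homozygote 2 the lowest, so homozygotes held both a high and a low culture. After normalization, the arrays of a genotype were 4.43-fold apart in homozygotes, 3.02-fold in heterozygotes and 3.62-fold in wild type. Gaps at least that large were found for 0.703% of all genes between the homozygote arrays, 0.906% between the heterozygote arrays and 1.78% between the wild-type arrays. Over the 6 arrays Eln spanned 11.1-fold, and 0.958% of genes spanned as much or more. The log2 difference of homozygotes from both other genotypes was 0.21 (SE 0.81, limma adjusted p = 1), with a 95% interval from -1.76 to 2.18 that holds more than a 2-fold change in either direction. It was -0.86 without homozygote 1 and 1.28 without homozygote 2. The other Eln probe set was dimmer, with intensities of 129.8 and 5.49 in homozygotes, 159.9 and 57.1 in heterozygotes, and 6.18 and 52.0 in wild type, and it gave -0.46 (SE 1.28). It was high and low in the same arrays as the brighter probe set.

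Smooth muscle marker genes took nearly the opposite order of arrays. Calponin (Cnn1), an actin-binding protein of contractile cells, had log2 levels of 7.45 and 10.64 in homozygotes, 8.67 and 9.22 in heterozygotes, and 10.96 and 9.95 in wild type. It was thus lowest in homozygote 1 and heterozygote 1, where Eln was highest, and highest in wild type 1 and homozygote 2, where Eln was lowest. The summed linear level of all 5 smooth muscle markers was 16200 and 23500 in homozygotes, 18900 and 20100 in heterozygotes, and 25100 and 22400 in wild type. All 5 had both heterozygote arrays below both wild-type arrays, against 18.4% of all genes. Their part in the spread of Eln was not tested.

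The fibulins are calcium-binding glycoproteins with repeated EGF-like modules. Fbln5 is needed in the mouse for elastic fibre assembly, Fbln1 is found with fibronectin, basement membranes and elastic fibres, and Fbln2 in basement membranes and developing heart. Of the 8 measured genes, these 3 had a promoter in the RefSeq table (GRCm38.p6). For each, the window from 250 bases before to 50 after the first start listed is shown. Capitals mark matches on either strand to a GC box (GGGCGG) or to the SMAD element CAGACA, and TATAAA and the AP-1 site TGANTCA were also searched without a match in these windows.
Fbln1, chr15:85205699-85205998, plus strand: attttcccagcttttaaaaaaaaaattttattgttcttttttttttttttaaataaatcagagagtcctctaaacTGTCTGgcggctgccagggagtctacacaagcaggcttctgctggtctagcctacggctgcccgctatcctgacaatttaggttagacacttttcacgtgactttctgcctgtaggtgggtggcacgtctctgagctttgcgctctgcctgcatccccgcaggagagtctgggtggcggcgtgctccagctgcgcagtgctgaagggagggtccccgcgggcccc
Fbln2, chr6:91212514-91212813, plus strand: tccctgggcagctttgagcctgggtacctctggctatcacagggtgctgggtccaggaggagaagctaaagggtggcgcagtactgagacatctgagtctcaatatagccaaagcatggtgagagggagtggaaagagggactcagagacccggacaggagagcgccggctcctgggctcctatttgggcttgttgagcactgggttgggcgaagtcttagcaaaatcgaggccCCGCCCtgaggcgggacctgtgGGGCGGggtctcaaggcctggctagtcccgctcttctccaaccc
Fbln5, chr12:101819070-101819369, minus strand: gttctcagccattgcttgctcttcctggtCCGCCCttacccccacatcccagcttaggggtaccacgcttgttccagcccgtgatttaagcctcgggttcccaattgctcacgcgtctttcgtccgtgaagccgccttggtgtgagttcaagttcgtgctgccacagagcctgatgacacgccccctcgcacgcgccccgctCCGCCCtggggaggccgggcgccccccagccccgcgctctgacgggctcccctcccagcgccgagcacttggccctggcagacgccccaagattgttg
The Fbln2 and Fbln5 windows held 2 GC boxes each and the Fbln1 window 1 SMAD element. Among all 32851 promoters of 300 bases in the table, 35.7% held a GC box, 21% the SMAD element, 13.6% TATAAA and 7.81% the AP-1 site, so these letters are common.

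Fbln1 had intensities of 437 and 222 in homozygotes, 234 and 387 in heterozygotes, and 144 and 292 in wild type. Its highest array was homozygote 1 and its lowest wild type 1, and the genotypes overlapped. The range over the arrays was 3.10-fold, which 9.39% of all genes reached. The difference of homozygotes from both other genotypes was 0.39 (SE 0.42, limma adjusted p = 1, 95% interval -0.62 to 1.41), and 0.29 (SE 0.38) from a second probe set. Another Fbln1 probe set lay below the intensity filter and was not tested. It had intensities of 22.6 and 17.2 in homozygotes, 28.7 and 28.5 in heterozygotes, and 2.78 and 1.80 in wild type, so both wild-type arrays were low there, which the brighter Fbln1 probe sets did not show.

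Fbln2 was bright on every array, with intensities of 3130.5 and 5000 in homozygotes, 3635 and 5143 in heterozygotes, and 5563 and 4377 in wild type. Its lowest arrays were homozygote 1 and heterozygote 1, unlike Eln, for which these were the highest. The range was 1.42-fold, which 73.4% of all genes reached. The difference of homozygotes from both other genotypes was -0.13 (SE 0.23, 95% interval -0.68 to 0.43). Its dimmer probe set was 2.77-fold apart between the homozygote arrays, with 40.9 in homozygote 1 and 100.1 in homozygote 2, and gave -0.20 (SE 0.42).

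Fbln5 had intensities of 3397 and 5201 in homozygotes, 5454 and 5173 in heterozygotes, and 3432 and 5216 in wild type. Homozygote 1 and wild type 1 were low and the other 4 arrays lay close together. The range of 1.88-fold was reached by 33.8% of all genes. The difference of homozygotes from both other genotypes was -0.05 (SE 0.28, limma adjusted p = 1), with a 95% interval from -0.72 to 0.62. A second Fbln5 probe set, with intensities between 6.63 and 31.6, was below the filter.

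Mfap5 encodes a small glycoprotein of microfibrils that binds fibrillin. Its brighter probe set had intensities of 683 and 788 in homozygotes, 1613 and 860.4 in heterozygotes, and 335 and 672 in wild type. Heterozygote 1 was the highest array and wild type 1 the lowest, and the homozygote arrays were 1.12-fold apart. The range of 5.26-fold was reached by 3.45% of all genes. Homozygotes differed from both other genotypes by 0.03 (SE 0.44, 95% interval -1.04 to 1.09). The dimmer probe set had 157 and 156 in homozygotes, 416 and 249.995 in heterozygotes, and 67.3 and 129.7 in wild type, so that homozygotes lay between the other genotypes without overlap. It gave -0.93 (SE 0.45, limma adjusted p = 1) against heterozygotes and 0.67 (SE 0.45, limma adjusted p = 0.973) against wild type.

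Among the lysyl oxidases, Lox and Loxl1 showed small spreads. Lox, which cross-links both collagen and elastin, had intensities of 8557 and 8641 in homozygotes, 9049 and 10042.5 in heterozygotes, and 7682 and 8340.3 in wild type. Its range over the arrays was 1.38-fold, and 78.1% of all genes had at least that range. On the normalized scale both homozygote arrays lay above both wild-type arrays and below both heterozygote arrays, though by little. The differences were 0.21 (SE 0.22, limma adjusted p = 0.973) from wild type and -0.11 (SE 0.22, limma adjusted p = 1) from heterozygotes. For homozygotes against both other genotypes the difference was 0.05. Its 95% interval from -0.41 to 0.51 leaves no room for a 2-fold change in this fit, for this probe set. A second bright Lox probe set gave 0.09 (SE 0.19) and a dim one, with intensities between 19.2 and 46.2, gave -0.47 (SE 0.27, 95% interval -1.13 to 0.18). In the second bright probe set both homozygote arrays also lay above both wild-type arrays, but they overlapped the heterozygote arrays. In the dim one they lay below both heterozygote arrays and overlapped wild type, with a difference of -0.41 (SE 0.31) from wild type.

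Loxl1, which is needed in the mouse for the upkeep of elastic fibres, had intensities of 4205 and 4556 in homozygotes, 5190.0 and 4990 in heterozygotes, and 3574 and 4575 in wild type. Wild type 1 was the lowest array and heterozygote 1 the highest, 1.71-fold apart, a range that 44.8% of all genes reached. Homozygotes differed from both other genotypes by 0.07 (SE 0.23, 95% interval -0.48 to 0.61), and by 0.06 (SE 0.27) in a dimmer probe set. Loxl3, a lysyl oxidase with scavenger receptor domains, was the member whose homozygote arrays stood at both ends of the range, with 530.0 and 1062.5 in homozygotes, 780.2 and 866 in heterozygotes, and 849 and 862 in wild type. Its range of 1.94-fold was reached by 30.7% of all genes. The difference was -0.10 (SE 0.30, 95% interval -0.83 to 0.63). Without homozygote 1 it was 0.38 and without homozygote 2 it was -0.58, while heterozygote and wild-type arrays of Loxl3 differed by 1.05-fold and 1.21-fold within their genotypes.

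**Figure D2:**
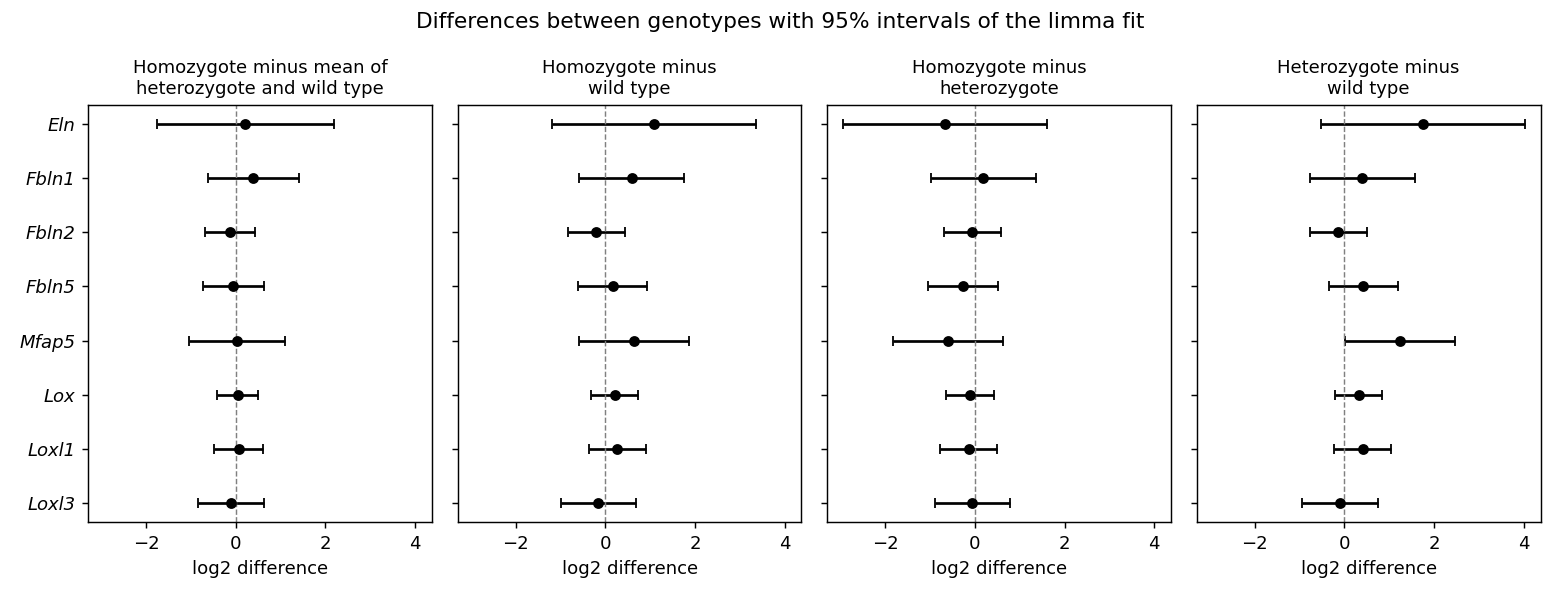
Log2 difference (x axis) of each measured gene (y axis) in 4 comparisons, from the limma fit to all 6 arrays, with 95% intervals. Intervals of Lox, Loxl1 and Fbln2 were narrow and those of Eln and Mfap5 wide, and the one interval that excluded 0 was that of Mfap5 in heterozygotes against wild type, which did not pass after adjustment.

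Set against wild type alone, 6 of the 8 genes had a positive difference in homozygotes, with a median of 0.24, beside 47.5% positive and a median of -0.02 over all genes. Eln differed by 1.08 (SE 0.94), Mfap5 by 0.64 (SE 0.51) and Fbln1 by 0.59 (SE 0.48), each with limma adjusted p = 0.973. Only Lox had both homozygote arrays above both wild-type arrays, 1 gene of 8 against 12.5% of all genes, and 0 of 8 lay below, against 14.3%. An unadjusted p under 0.05 was found for 0 of 8 genes and 3.28% of all genes. Without wild type 1, the median was 0.01 and 5 of the 8 differences were positive, with Eln at 0.16 and Mfap5 at 0.05. Eln was also at 0.011 without homozygote 1, 2.16 without homozygote 2 and 2.01 without wild type 2. When embryo sex was a covariate, with the limit given above, 2 of the 8 differences were positive and 6 negative, with a median of -0.059.

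Heterozygotes alone gave the other order. In homozygotes against heterozygotes, 7 of the 8 genes had a negative difference, with a median of -0.13, beside 47.1% positive and a median of -0.01 over all genes. Eln differed by -0.67 (SE 0.94) and Mfap5 by -0.59 (SE 0.51), and Fbln1 was the single gene with a positive difference, at 0.19 (SE 0.48), all with limma adjusted p = 1. Eln was at 0.41 without homozygote 2 and 0.13 without heterozygote 1, and at -1.74 without homozygote 1 and -1.46 without heterozygote 2. Mfap5 was at -0.021 without heterozygote 1 and -1.16 without heterozygote 2, and Fbln1 turned to -0.27 without homozygote 1 and -0.050 without heterozygote 1. When embryo sex was a covariate, with the same limit, 7 of 8 were negative and the median was -1. Both homozygote arrays lay below both heterozygote arrays for Lox alone, 1 of 8 against 12.4% of all genes, and above them for 0 of 8, against 10.5%. An unadjusted p under 0.05 was found for 0 of 8 genes and 1.94% of all genes. These comparisons share the homozygote arrays with the comparisons above.

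The widest differences lay between heterozygotes and wild type. Here 6 of the 8 genes had a positive difference, with a median of 0.40, beside 50.2% positive and a median of 0.0011 over all genes. Eln was 3.36-fold higher in heterozygotes (1.75, SE 0.94, 95% interval -0.53 to 4.03, limma adjusted p = 0.838) and Mfap5 2.35-fold higher (1.23, SE 0.51, 95% interval 0.0062 to 2.46, limma adjusted p = 0.838). Loxl1 differed by 0.41 (SE 0.26), Fbln5 by 0.42 (SE 0.32), Fbln1 by 0.40 (SE 0.48) and Lox by 0.32 (SE 0.22), while Fbln2 was at -0.14 (SE 0.26) and Loxl3 at -0.10 (SE 0.35). Both heterozygote arrays lay above both wild-type arrays for 4 of the 8 genes, Eln, Mfap5, Lox and Loxl1, against 17.6% of all genes, and below them for 0 of 8, against 18.4%. For Eln the gap was slight, since heterozygote 2 was at 8.08 and wild type 2 at 8.06 on the normalized log2 scale. The dimmer probe sets of Eln and Loxl1 overlapped, with heterozygote 2 below wild type 2 (5.68 and 5.89 for Eln, 7.29 and 7.44 for Loxl1). The dimmer Mfap5 probe set and the second bright Lox probe set were separated in the same direction, and the dim Lox probe set overlapped. Mfap5 alone among the 8 had an unadjusted p under 0.05, where 4.33% of all genes had one. Embryo sex was not balanced here either, with Xist at log2 levels of 10.27 and 10.29 in heterozygotes and 8.82 and 4.23 in wild type. When embryo sex was a covariate, with the limit given above, 6 of 8 were positive and the median was 0.91.

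These differences moved with single arrays. Wild type 1 was the lowest of the 6 arrays for 6 of the 8 genes, Eln, Fbln1, Fbln5, Mfap5, Lox and Loxl1, against 26.6% of all genes, and homozygote 1 was the lowest for Fbln2 and Loxl3. Without wild type 1, the median difference of heterozygotes from wild type was 0.09, with 5 of 8 positive, and Eln was at 0.82, Mfap5 at 0.65 and Fbln1 at -0.18. Without heterozygote 1, Eln was at 0.95 and Mfap5 at 0.66. Fibroblast markers were mostly low in the same array. Their median log2 level relative to each gene's mean was 0.25 and -0.08 in homozygotes, 0.14 and 0.36 in heterozygotes, and -0.53 and -0.02 in wild type, and 5 of the 7 were lowest in wild type 1. The other 2, Vim and Thy1, were lowest in homozygote 1, and Vim was highest in wild type 1, at a log2 level of 13.81. For the 8 genes, the median taken in the same way was 0.02 and 0.04 in homozygotes, 0.20 and 0.11 in heterozygotes, and -0.54 and 0.03 in wild type. Smooth muscle markers were at -0.35 and 0.57 in homozygotes, -0.81 and -0.12 in heterozygotes, and 0.56 and 0.21 in wild type. The summed level of the 10 macrophage markers above the filter was 13900 and 6820 in homozygotes, 5140 and 4510 in heterozygotes, and 2680 and 6590 in wild type, and all 10 had both homozygote arrays above both heterozygote arrays, against 10.5% of all genes. Whether these shifts in other lists account for the low values of wild type 1 was not tested. That array was also the one whose label names no strain, and its Xist level was 8.82 on the log2 scale against 4.23 in wild type 2. The part of strain or embryo sex in its low values was not tested.

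**Figure D3:**
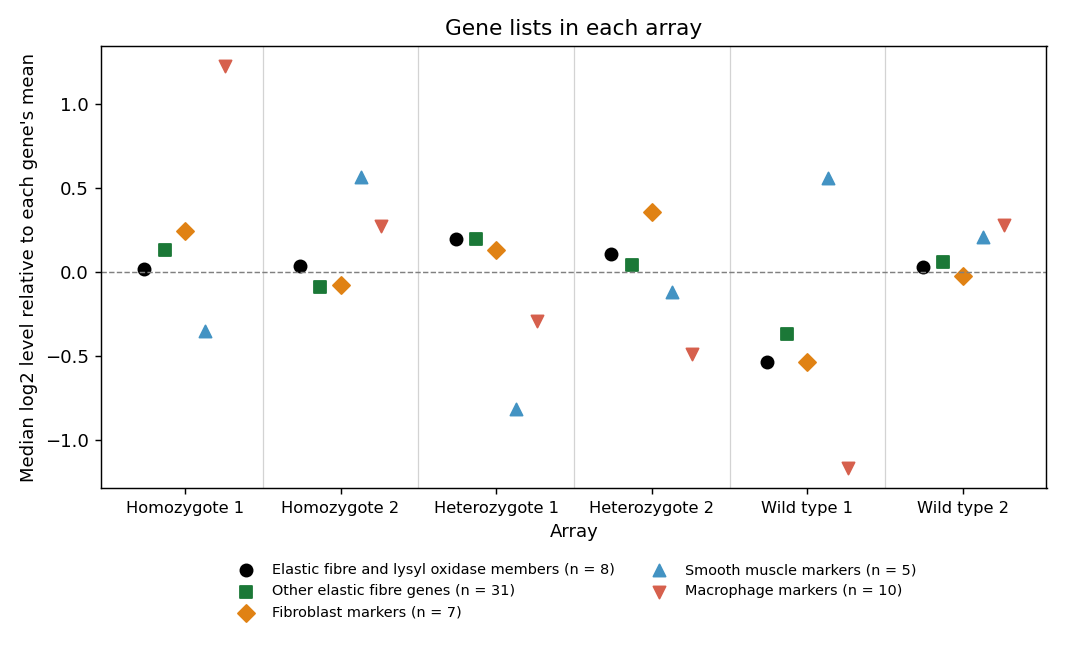
Median log2 level of gene lists relative to each gene's mean over the 6 arrays (y axis), by array (x axis), for genes above the intensity filter. The elastic fibre and lysyl oxidase genes and the fibroblast markers were lowest in wild type 1, at -0.54 and -0.53, where the smooth muscle markers were at 0.56.

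Other genes of elastic fibre assembly and turnover were described from a list of 37, of which 31 were tested. Adamtsl2, Emilin3, Mmp9 and Tll2 lay below the intensity filter, and no value of Fbn1 or Fkbp10 was analysed here. In homozygotes against both other genotypes, 17 of the 31 had a positive and 14 a negative difference, with a median of 0.06, beside 47.4% positive and a median of -0.01 over all genes. None passed (limma adjusted p = 1 for each) and 0 had an unadjusted p under 0.05, where 2.19% of all genes had one. Of the positive differences, those with the smallest p were periostin (Postn), a matricellular protein that promotes matrix cross-linking, at 0.53 (SE 0.26), the macrophage elastase Mmp12 at 1.75 (SE 1.08), and Emilin2, of a family of microfibril-associated glycoproteins, at 0.72 (SE 0.48). Mmp12 was high in homozygote 1 only, with log2 levels of 9.25 and 4.90 in homozygotes, 5.07 and 4.93 in heterozygotes, and 5.76 and 5.53 in wild type. The summed macrophage markers given above were also highest in homozygote 1, and their part in the level of Mmp12 was not tested. Emilin2 was likewise highest in homozygote 1, at 8.33, with 6.50 to 6.91 in the other 5 arrays.

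Negative differences with the smallest p were those of Ltbp1, a latent TGF-beta binding protein (-0.49, SE 0.25), the metalloprotease Tll1 (-1.19, SE 0.61) and Ltbp4, which takes part in elastic fibre assembly (-0.23, SE 0.18). Tll1 was highest in wild type 1, with log2 levels of 5.94 and 7.31 in homozygotes, 7.13 and 7.41 in heterozygotes, and 9.35 and 7.39 in wild type. Ltbp4 was the only gene of the 31 whose homozygote arrays both lay below the other 4, against 3.61% of all genes, and none lay above.

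Between heterozygotes and wild type, 24 of the 31 genes had a positive difference, with a median of 0.33, beside 50.2% positive and a median of 0.0011 over all genes. The limma fit gave an unadjusted p under 0.05 for 2 of the 31, against 4.33% of all genes. Both heterozygote arrays were above both wild-type arrays for 10 and below for 4 of the 31, against 17.6% and 18.4% of all genes. Postn differed by 1.11 (SE 0.30, limma adjusted p = 0.838), with log2 levels of 12.78 and 12.67 in homozygotes, 12.76 and 12.74 in heterozygotes, and 11.26 and 12.03 in wild type. Its 4 homozygote and heterozygote arrays lay close together, and both wild-type arrays were lower. Wild type 1 was the lowest array for 20 of the 31 genes, against 26.6% of all genes. Without it, 16 of the 31 had a positive difference from wild type and the median was 0.10.

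**Figure D4:**
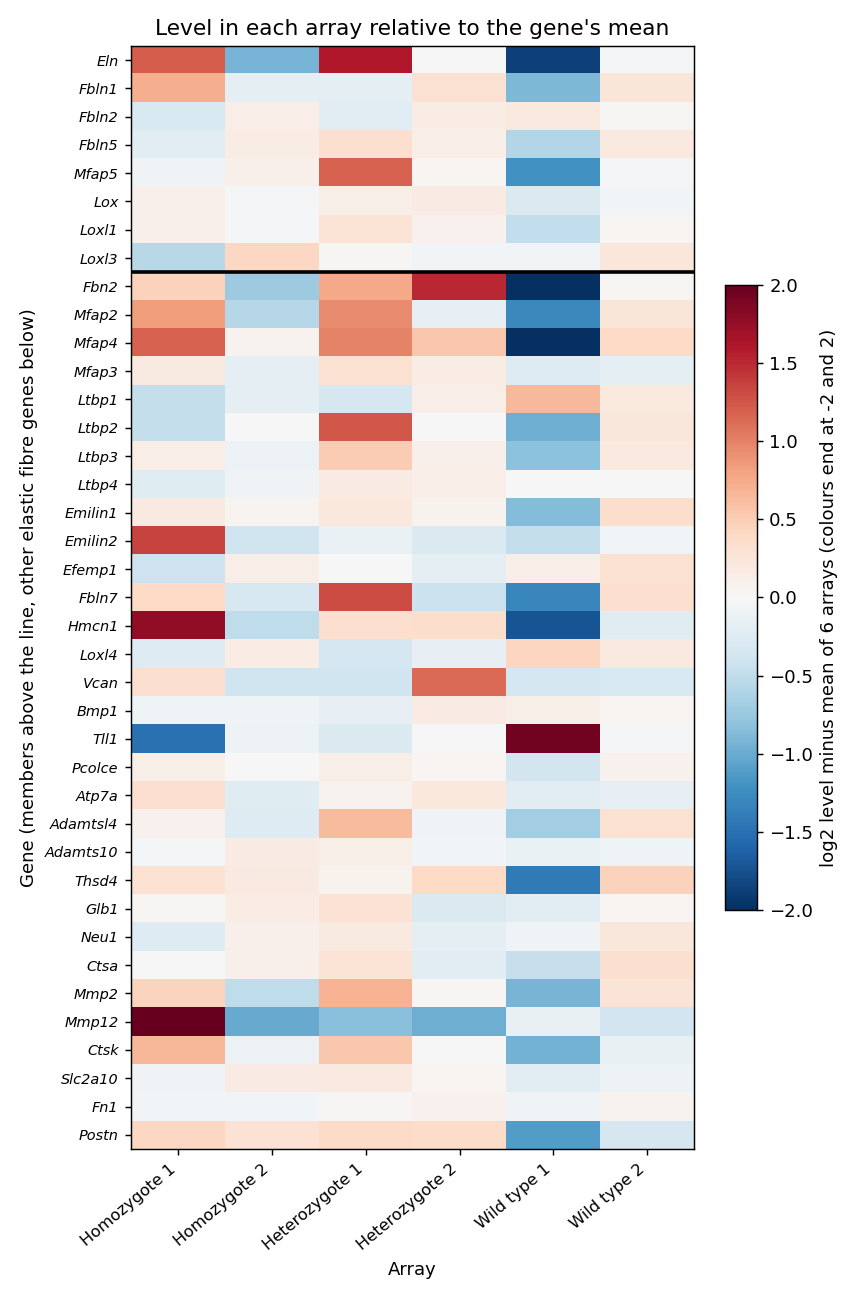
Log2 level of each tested gene in each array minus its mean over the 6 arrays, with the 8 measured members above the line and the 31 other elastic fibre genes below it. Columns are arrays, red is above and blue below the gene's mean, and colours end at -2 and 2. The column of wild type 1 is the bluest, being the lowest array for 6 of the 8 and 20 of the 31 genes.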

How the data were processed

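Total RNA of 6 primary fibroblast cultures was hybridised to Affymetrix mouse arrays, with 2 µg of RNA each, per the labels' protocols. The authors deposited linear intensities for 45101 probe sets. Scanner software, probe summary, scaling and genome build were not found in the sources used here.

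Intensities were converted to log2(intensity + 1.78), the 10th percentile of all intensities, and quantile normalized, since the array medians spanned 0.29. A fold change on this scale understates that of dim probe sets. The 64 control probe sets were left out, and the upper 50% by mean log2 intensity (at least 4.57) were tested with limma 3.58.1 in R 4.3.3, with a mean per genotype, all 6 arrays, 3 residual and 3.28 prior degrees of freedom, and Benjamini-Hochberg adjustment over all tested probe sets (threshold 0.05). Intervals are 95% intervals of this fit. SDs are of 2 arrays.

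Names came from a platform annotation table: 34945 probe sets had 1 symbol, 932 several and 9160 none, and no symbol differed from that of its Entrez identifier in the GRCm38.p6 table. A gene's value is that of its probe set with the highest mean. All members are named, and of the other elastic fibre genes the 3 with the smallest p in each direction. Members and lists were chosen with earlier results of these data known. In data simulated for homozygotes against both other genotypes on 22519 probe sets, 56% of changes of 2 log2 units and 88% of those of 4 were recovered, with 5 false calls. Spreads were shuffled among probe sets and the noise was independent, without shifts of whole cultures. These shares therefore do not apply to a gene as variable as Eln. Alternatives covered scaling, pseudocount, filter, probe sets, variance trend, a sex covariate, a replicate block and leaving out each array.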

Additional observations from a re-analysis of the deposited data

How the results depend on the processing

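None of the 8 genes passed the threshold under any alternative, and 24 of 320 differences changed sign under settings other than leaving out an array. The changed filters, the replicate block and the variance trend leave every difference as it was. They are counted among the 320 but could not change a sign, so the share is no measure of stability. The covariate for embryo sex was the mean log2 level of Y-linked genes minus that of Xist. It was 3.88 and 2.24 in homozygotes, -8.44 and -8.62 in heterozygotes, and -5.87 and 2.93 in wild type. Values adjusted with it thus rest largely on the gap between the wild-type arrays. With the covariate for embryo sex, homozygotes against both other genotypes gave -1.82 for Eln, -0.77 for Fbln1, 0.11 for Fbln2, -1.01 for Mfap5, -0.18 for Lox and -0.43 for Loxl1. Against wild type this covariate gave -0.055 for Eln, -0.064 for Fbln1, -0.19 for Fbln5 and -0.0054 for Loxl1, and against heterozygotes -1.48 for Fbln1 and 0.28 for Fbln2. The median over the genes there was -0.55, -0.059 and -1 in these comparisons and 0.91 in heterozygotes against wild type, where 1 probe set was called. The mean of all probe sets of a gene gave -0.13 for Eln, 0.18 for Fbln5, -0.052 for Mfap5 and -0.11 for Lox in homozygotes against both other genotypes, and -0.019 for Fbln1 and 0.020 for Fbln2 against heterozygotes. With no normalization between arrays, homozygotes against both gave -0.028 for Mfap5, -0.023 for Lox and -0.052 for Loxl1, and against wild type -0.0095 for Fbln5, while the median of all probe sets moved to 0.11 in heterozygotes against wild type and -0.11 in homozygotes against heterozygotes. Median scaling gave -0.011 for Loxl1 in homozygotes against both, -0.051 for Fbln5 against wild type, and a median of 0.17 for the genes in heterozygotes against wild type. The cause was not tested for any of these.

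With 1 array left out, 29 of 192 differences changed sign. The 192 include differences that could not move, since the array left out belonged to a genotype outside the comparison. In homozygotes against both other genotypes the values ran from -0.86 to 1.28 for Eln, -0.071 to 0.86 for Fbln1, -0.34 to 0.089 for Fbln2, -0.24 to 0.14 for Fbln5, -0.27 to 0.32 for Mfap5, -0.018 to 0.12 for Lox, -0.066 to 0.20 for Loxl1 and -0.58 to 0.38 for Loxl3. Against wild type they ran from -0.41 to 0.020 for Fbln2, -0.22 to 0.55 for Fbln5 and -0.63 to 0.33 for Loxl3, with a median over the genes of 0.011 to 0.54. Against heterozygotes the ranges were -1.74 to 0.41 for Eln, -0.27 to 0.66 for Fbln1, -0.27 to 0.16 for Fbln2 and -0.53 to 0.42 for Loxl3. For heterozygotes against wild type they were -0.18 to 0.97 for Fbln1, -0.32 to 0.044 for Fbln2 and -0.23 to 0.038 for Loxl3, with a median of 0.094 to 0.74. Called probe sets numbered 0 to 2 in homozygotes against both others, 0 to 2 against heterozygotes and 0 to 1 in heterozygotes against wild type. Counts of positive differences without an array or with the sex covariate were added after seeing the data.

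The difference between replicates correlated at -0.14, -0.14 and -0.36 between genotypes. These values also hold differences between cultures, so they cannot show whether arrays of the same replicate number were processed together. With the replicate block limma called 0 probe sets in each comparison, with 410 at an unadjusted p under 0.05 in homozygotes against both others. With 2 arrays per genotype, a difference like that of Eln cannot be separated from the spread between cultures.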

Other observations

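The genes Mfap4, Mfap2 and Fbn2 are named here after their values were seen. Their ranges over the 6 arrays were 20.7-fold, 4.74-fold and 11.7-fold. Some genes of the same list varied less, such as Mfap3 (1.48-fold) and Ltbp4 (1.32-fold). Others varied widely too, such as Mmp12 (20.4-fold) and Tll1 (10.6-fold), so wide ranges were not particular to the genes named here. Mfap4, a glycoprotein that binds elastin and microfibrils, had log2 levels of 10.55 and 9.44 in homozygotes, 10.36 and 9.90 in heterozygotes, and 6.18 and 9.77 in wild type. Wild type 1 thus lay far below the other 5 arrays. Mfap2, which like Mfap5 binds fibrillin, was at 10.43 and 9.02 in homozygotes, 10.55 and 9.42 in heterozygotes, and 8.30 and 9.83 in wild type. Its highest arrays were heterozygote 1 and homozygote 1 and its lowest wild type 1 and homozygote 2, the same arrays as for Eln. Fbn2, the fibrillin typical of embryonic microfibrils, was at 9.71 and 8.51 in homozygotes, 10.00 and 10.75 in heterozygotes, and 7.21 and 9.28 in wild type, so heterozygotes were highest.

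Both probe sets annotated to Loxl2 together with Gm21451 took another order. One had intensities of 983 and 2111 in homozygotes, 856 and 1942 in heterozygotes, and 2717 and 2343 in wild type. The other had 179.9 and 285 in homozygotes, 134 and 295 in heterozygotes, and 567 and 304 in wild type. Both were lowest in heterozygote 1 and homozygote 1, the arrays in which Eln was highest. After normalization the first was highest in wild type 2, at a log2 level of 11.26 against 11.22 in wild type 1, and the other was highest in wild type 1. Which of the 2 annotated genes gave the signal cannot be told from these probe sets, and no test was made on them as a gene.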
